A study of Mus musculus with 6 samples.

Results

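Alternatively activated and scavenger macrophage genes were followed in mouse tracheal mesenchyme during repair after inhaled sulfur dioxide (SO2). The 10 genes were Chil3, Retnla, Mrc1, Cd163, Il4ra, Msr1, Marco, Trem2, Gpnmb and Folr2. They were represented by all 18 probe sets that the platform annotation assigns to exactly 1 of these symbols or a synonym, out of 45037 probe sets and 18193 genes on the array. All 10 genes were measured. The injured samples were 3 mesenchyme preparations taken at 48 h post injury (hpi) from adult male C57Bl/6 mice that had breathed 500 ppm SO2 for 4 h. The controls were 3 preparations from control males of the same strain. Tissue of 4 mice was pooled in each preparation, and epithelium was peeled off after 23 min in dispase. The remaining mesenchyme was neither sorted nor depleted of leukocytes, so it holds fibroblasts, cartilage, smooth muscle, vessels and whatever blood-derived cells were in the tissue. The 3 preparations of a group are separate pools, and p-values measure the spread between pools.

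Macrophages clear debris and dying cells from injured airways. When they meet interleukin 4 (IL-4) or interleukin 13 (IL-13), the receptor subunit encoded by Il4ra activates the transcription factor STAT6. In mouse this induces the secreted proteins of Chil3 and Retnla and the mannose receptor of Mrc1, a state called alternative activation. Scavenger receptors such as those of Msr1, Marco and Cd163 bind modified lipoproteins, microbes or hemoglobin complexes. Trem2 and Gpnmb belong to a lipid-handling, phagocytic program, and Folr2 marks resident tissue macrophages. Several of these genes are also expressed elsewhere. Chil3 is also expressed in neutrophils, Retnla in airway epithelium and eosinophils, Mrc1 in lymphatic endothelium, and Gpnmb in melanocytes and osteoclasts.

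At 48 hpi, 6 of the 10 genes rose: Chil3, Msr1, Mrc1, Il4ra, Trem2 and Folr2. Of all genes on the array 4.97% rose and 1.24% fell in the same test, 6.21% in all. Of the other 4, Cd163 was higher and Retnla, Marco and Gpnmb were lower by their means, without passing the threshold of an adjusted p of 0.05 in limma. The median log2 fold change of the 10 genes was 1.17, against -0.01 over all genes. Over the 18 probe sets 8 rose and 0 fell, beside 3.49% and 0.846% of all probe sets. An unmoderated equal-variance test at an unadjusted p of 0.05 placed 7 of the genes higher and 0 lower, beside 13.2% and 8.03% of all genes, and after adjustment it called 0 of the 10 (0.247% of all genes). With the replicate number as a block, Cd163 passed as well and Retnla fell, giving 7 rises and 1 fall beside 8.77% and 4.64% of all genes. In 7 genes the 3 values at 48 hpi lay above all control values and in 2 they lay below, as was so for 17.2% and 13.1% of all genes (30.4% in either direction). More macrophages and more RNA per macrophage cannot be told apart in these bulk samples.

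**Figure D1:**
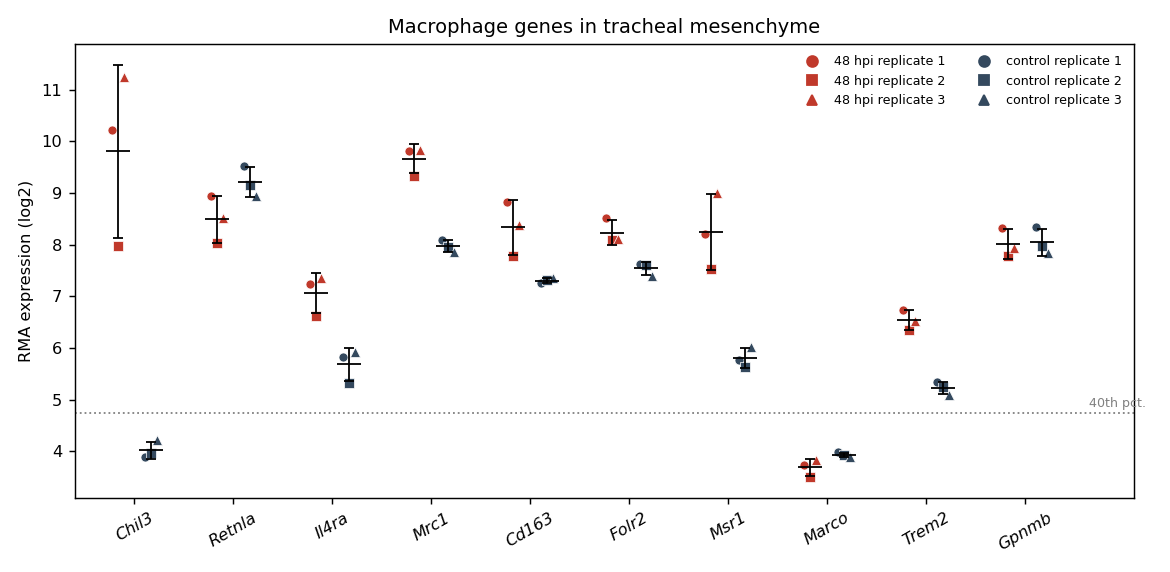
The vertical axis gives log2 RMA values and the horizontal axis the 10 genes, with a symbol for each of the 3 samples at 48 hpi (red) and of the 3 controls (dark) and bars for mean ± SD. The dotted line is the 40th percentile of all values (4.75), below which lie the controls of Chil3 and all samples of Marco. Levels of different genes come from different probes and cannot be compared.

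Chil3, which encodes a chitinase-like lectin also known as Ym1, had the second highest log2 fold change of 18193 genes. Its values were 10.21, 7.97 and 11.25 at 48 hpi, against 3.88, 3.96 and 4.21 in controls. The groups were far apart, by 3.75 between the lowest injured and the highest control value, but the injured samples spread widely. The mean was 9.81 ± 1.68 at 48 hpi and 4.02 ± 0.17 in controls (SD, n = 3 each), a log2 fold change of 5.79 ± 0.73 (SE, limma adjusted p = 0.00820). All control values were under 4.75 (40th percentile of every value in the table), below which a probe set is called dim here, and the 55.3-fold change is poorly fixed. Set against that bound in place of the control mean, the difference was 5.06, or 33.4-fold. The rise passed in all 6 fits that left out 1 sample (adjusted p up to 0.0411), and without both samples numbered 1 it was 5.52 with an adjusted p of 0.0582. A near-identical paralog, Chil4, can share probes with Chil3. The probe set assigned to Chil4 alone was dim in every sample, at 4.14, 4.06 and 4.19 at 48 hpi and 3.99, 3.99 and 4.05 in controls. A further probe set that the annotation gives to both paralogs was not used.

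Retnla, which encodes the secreted resistin-like molecule alpha (RELMα, FIZZ1), did not follow Chil3. It was measured at 8.94, 8.03 and 8.51 at 48 hpi, against 9.52, 9.16 and 8.94 in controls. The highest injured value lay just below the lowest control value. Means were 8.49 ± 0.45 at 48 hpi and 9.21 ± 0.29 in controls (SD, n = 3 each), and the log2 fold change, -0.72 ± 0.24 (SE), missed the threshold (limma adjusted p = 0.170). It passed with the replicate block (adjusted p = 0.0250), and in 0 of 6 fits that left out a sample (adjusted p from 0.0880 to 0.348). The log2 difference between Chil3 and Retnla on the same array was 1.27, -0.07 and 2.74 at 48 hpi, against -5.64, -5.20 and -4.73 in controls. It was thus higher after injury in 3 of 3 samples, with a mean of 1.32 ± 1.40 at 48 hpi and -5.19 ± 0.45 in controls (SD). An exact permutation test, two-sided, gave p = 0.1, the smallest that 3 against 3 samples allow, and p = 0.1 after adjustment over the 5 gene pairs computed, of which the pair with dim Marco is not given. With the dim controls of Chil3 set at 4.75, the mean difference between groups was 5.78.

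Airway epithelial RNA was also present and varied between samples. Of 16 airway epithelial markers 0 rose and 0 fell, with a median of -0.31, whereas with the block the keratin gene Krt19 rose (1 gene) and the secretory genes Scgb1a1 and Scgb3a2 fell (2 genes), Krt19 and Scgb3a2 being named after their values were seen. Their summed linear RMA value was 5170 to 27030 at 48 hpi and 23650 to 38890 in controls. The club cell secretoglobin gene Scgb1a1 measured 12.31, 9.90 and 8.72 at 48 hpi, against 13.46, 12.68 and 12.50 in controls (log2 fold change -2.57 ± 0.82, SE, adjusted p = 0.146). Retnla and Scgb1a1 had the same order in controls and were both highest in replicate 1 of either group. At 48 hpi Scgb1a1 was lowest in replicate 3 and Retnla in replicate 2. Most other epithelial markers were lowest in replicate 3 at 48 hpi. Krt5, Krt14 and Cdh1 were lowest in replicate 2 and Epcam in replicate 1, all 4 named after their values were seen. The part of epithelial RNA in the values of Retnla was not tested. Among eosinophil markers, the granule genes Epx, named after its values were seen (3.40, 3.40 and 3.40 at 48 hpi, against 3.47, 3.39 and 3.40 in controls) and Prg2 were dim in all samples, and 0 of 5 markers rose or fell.

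Promoters of Chil3 and Retnla, both known as STAT6 targets in mouse, are printed because the values of the pair diverged. Sequences come from RefSeq, build GRCm38.p6, and hold 250 bases before and 50 after the annotated start. Windows were found for 9 of the 10 genes, all but Msr1. A STAT6-type palindrome, TTCNNNNGAA, was searched on both strands. Among 32851 windows of this length, 6.95% held it. The Retnla window held these letters once, starting 145 bases before the start, and no other window of these genes held them. Matches are a description of letters and not of binding, and no match says only that the letters are not in this window. The Chil3 window holds the same ends with a shorter spacer (ttcttagaa), a form that was not searched. Capitals mark the match in Retnla (chr16:48842359-48842658, plus strand), and the Chil3 window (chr3:106167515-106167814, minus strand) is in lower case throughout.
Chil3: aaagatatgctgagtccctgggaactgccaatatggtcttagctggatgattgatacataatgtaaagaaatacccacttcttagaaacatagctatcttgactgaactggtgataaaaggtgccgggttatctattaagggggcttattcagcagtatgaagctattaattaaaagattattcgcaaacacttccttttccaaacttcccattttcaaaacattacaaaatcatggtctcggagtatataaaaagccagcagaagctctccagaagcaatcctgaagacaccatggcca
Retnla: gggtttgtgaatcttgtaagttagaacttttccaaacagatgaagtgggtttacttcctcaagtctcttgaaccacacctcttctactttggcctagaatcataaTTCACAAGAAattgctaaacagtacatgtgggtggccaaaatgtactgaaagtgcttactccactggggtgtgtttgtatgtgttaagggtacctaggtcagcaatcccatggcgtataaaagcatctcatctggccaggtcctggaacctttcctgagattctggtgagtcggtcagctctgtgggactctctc

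Il4ra, which encodes the receptor chain shared by IL-4 and IL-13, rose in 1 of its 3 probe sets. The brightest measured 7.23, 6.62 and 7.35 at 48 hpi, against 5.82, 5.32 and 5.92 in controls. No injured value overlapped the controls, and the log2 fold change was 1.38 ± 0.23 (SE, limma adjusted p = 0.0222), a 2.60-fold change. The second gave 5.91, 5.82 and 5.96 at 48 hpi and 5.57, 5.47 and 5.35 in controls, a smaller difference of 0.43 ± 0.09 that narrowly missed (adjusted p = 0.0520, and 0.0360 with the block). The third differed by 0.10 ± 0.12 with overlapping groups. Taking the mean of all 3 probe sets lowered the log2 fold change to 0.63 (adjusted p = 0.0207). Of the 6 fits that left out a sample, the brightest probe set passed in 1, without 48 hpi replicate 2, and its adjusted p was highest, 0.0964, without 48 hpi replicate 3.

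The ligands were close to the floor of the array. Il4 gave 3.76, 3.96 and 3.89 at 48 hpi, against 4.04, 3.70 and 3.78 in controls, and Il13 gave 4.60, 4.60 and 4.68 at 48 hpi, against 4.65, 4.51 and 4.39 in controls. Both lay below the dim bound in every sample, so neither a level nor a change can be read from them. Stat6 was well above the dim bound, with means of 9.44 ± 0.07 at 48 hpi and 9.40 ± 0.12 in controls (SD, n = 3 each, adjusted p = 0.875). Of 30 measured genes of the IL-4 receptor axis, 5 rose, 0 fell and 25 did not pass, with a median log2 fold change of 0.09. In 9 of the 30 both group means were dim, so no change can be read from those. The members that rose were Arg1, Ccl24 and, named after their values were seen, Ccl17, Il13ra1 and Ccl22. Arg1, the arginase of alternatively activated macrophages, rose by 4.75 ± 0.20 (SE, adjusted p = 0.000136). Its values were 10.46, 10.04 and 10.76 at 48 hpi, against 5.81, 5.39 and 5.82 in controls. The eosinophil chemokine gene Ccl24 rose by 2.06 ± 0.37 (adjusted p = 0.0298), Ccl17 by 1.75 (0.0455), the second receptor chain Il13ra1 by 0.87 (0.0247) and Ccl22 by 0.58 (0.0494). Clec10a (0.34), Mgl2 (-0.24), Irf4 (-0.11, dim in both group means) and Pparg (-0.21), also named after their values were seen, did not pass.

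**Figure D2:**
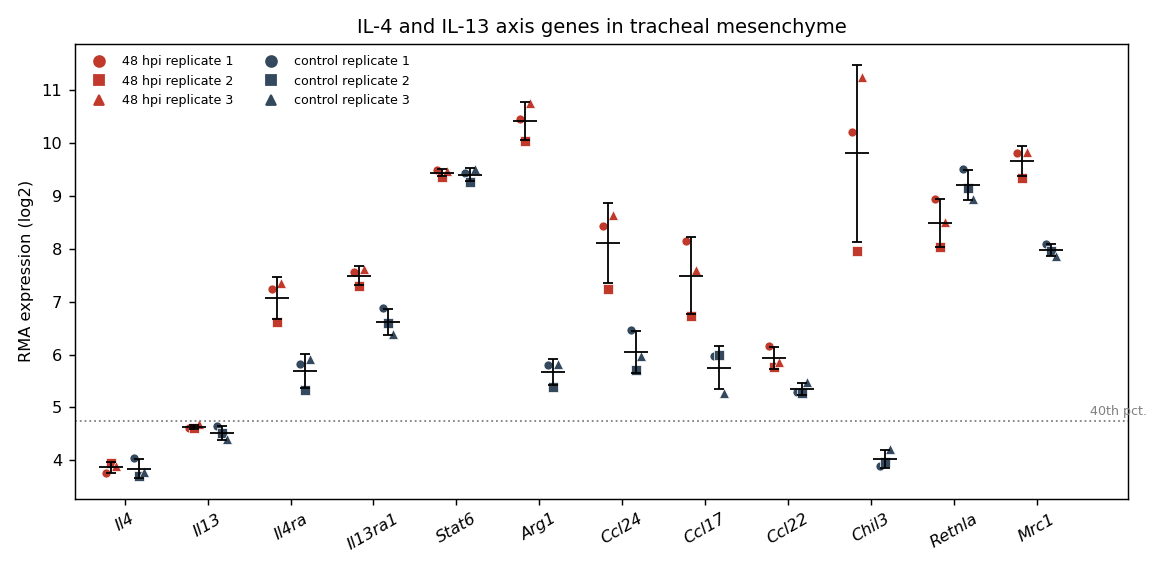
Genes of the IL-4 and IL-13 axis run along the horizontal axis and log2 RMA values up the vertical axis, with a symbol per sample at 48 hpi (red) and in controls (dark), bars for mean ± SD of 3 samples, and the dim bound of 4.75 dotted. Il4 and Il13 lie below the bound in all 6 samples, whereas Arg1 is at 10.04 or above at 48 hpi and at 5.82 or below in controls.

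Among endocytic receptors, Mrc1 gave an even rise. It encodes the mannose receptor CD206, a C-type lectin that takes up glycoproteins. Values were 9.81, 9.34 and 9.84 at 48 hpi, against 8.10, 7.96 and 7.86 in controls. The groups were separated by 1.24 with little spread in either, and the log2 fold change was 1.69 ± 0.15 (SE, limma adjusted p = 0.00205), or 3.22-fold. All 6 fits without 1 sample passed (adjusted p up to 0.0171). Of 7 lymphatic endothelial markers 0 rose or fell, although Pdpn (0.56, adjusted p = 0.0539) passed with the block (0.0200), and their summed linear value was 3232 to 4115 at 48 hpi against 2837 to 3073 in controls. Pdpn and Lyve1 (0.46) were the brightest genes of this list. Flt4 (0.09), Reln (-0.16) and Mmrn1 (-0.27), named after their values were seen, did not pass. Prox1, which defines lymphatic endothelium, was dim in both group means, as was Stab2.

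The Mrc1 promoter is shown as the window with the most matches to 1 motif among the 9 genes with a window, which leaves out Msr1. It held 3 matches to GAGGAA, the core letters bound by the myeloid factor PU.1, searched on both strands and read here on the opposite one, in capitals (chr2:14229164-14229463, plus strand). At least 1 match was present in 28.3% of the 32851 windows and at least 3 in 0.685%. Matches were also found in Retnla, Marco and Trem2, 1 in each, and no 2 matches of any motif overlapped in these windows.
Mrc1: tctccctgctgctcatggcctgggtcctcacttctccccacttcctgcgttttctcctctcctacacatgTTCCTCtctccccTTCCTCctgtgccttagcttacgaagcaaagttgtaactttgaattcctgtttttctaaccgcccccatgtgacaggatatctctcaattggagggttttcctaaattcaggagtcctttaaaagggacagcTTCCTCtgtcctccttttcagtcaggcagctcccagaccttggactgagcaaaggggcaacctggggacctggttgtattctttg

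Cd163 encodes the receptor that clears hemoglobin bound to haptoglobin. It stood at 8.83, 7.78 and 8.38 at 48 hpi, against 7.26, 7.31 and 7.35 in controls. All injured values were higher, although they varied widely while the controls were nearly equal. The log2 fold change of 1.03 ± 0.24 (SE) missed the threshold (limma adjusted p = 0.0638), and passed with the block (0.0213) and without 48 hpi replicate 2 (0.0124). Folr2, a folate receptor found on resident macrophages, gave 8.51, 8.09 and 8.10 at 48 hpi, against 7.62, 7.61 and 7.39 in controls. It rose 1.62-fold, by 0.69 ± 0.14 on the log2 scale (adjusted p = 0.0396), with no overlap between groups. This call was lost in all 6 fits that left out a sample, where adjusted p lay between 0.0664 and 0.130. Cd163 was lower relative to Mrc1 on the injured arrays. The log2 difference Cd163 minus Mrc1 was -0.98, -1.55 and -1.45 at 48 hpi, against -0.84, -0.65 and -0.52 in controls (exact permutation test, two-sided, p = 0.1, the smallest possible).

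Other genes of resident tissue macrophages moved in both directions. Of 21 measured, 6 rose, 1 fell and 14 did not pass, with a median of 0.46. Ccl8, a CC chemokine gene, rose by 2.58 ± 0.36 (SE, adjusted p = 0.0128) and Pf4 by 2.36 ± 0.23 (0.00295). F13a1, which encodes coagulation factor XIII A and was the 1 gene of this list to fall, measured 12.29, 12.36 and 12.05 at 48 hpi and 12.97, 12.80 and 13.04 in controls (-0.70 ± 0.12, adjusted p = 0.0213). Lyve1, a hyaluronan receptor of resident macrophages and lymphatics, differed by 0.46 ± 0.15 on the log2 scale, short of the threshold (adjusted p = 0.147). Of 16 genes of monocytes and recruited macrophages, 8 rose and 0 fell, with a median of 1.19. The chemokine receptor gene Ccr2 was among them, at 8.34, 8.07 and 8.15 at 48 hpi against 7.04, 6.81 and 7.29 in controls (1.14 ± 0.14, adjusted p = 0.00765), as were Ms4a6d (3.82 ± 0.24) and the C-type lectin Clec4e (2.76 ± 0.34, from dim controls).

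The class A scavenger receptors Msr1 and Marco share a collagenous stalk and bind modified lipoproteins and bacteria. The brightest Msr1 probe set measured 8.21, 7.54 and 9.01 at 48 hpi, against 5.78, 5.62 and 6.01 in controls. Its groups lay 1.53 apart, and the log2 fold change was 2.45 ± 0.34 (SE, limma adjusted p = 0.0113), or 5.46-fold. The other 3 probe sets were also higher in every injured sample but by less, at 1.17 ± 0.23 (adjusted p = 0.0393), 0.60 ± 0.12 (0.0354, dim in both groups) and 0.41 ± 0.11 (0.0879, and 0.0463 with the block). Averaged over its 4 probe sets, Msr1 rose by 1.16 (adjusted p = 0.00431). The rise of the brightest probe set held in 5 of 6 fits that left out a sample and was just lost without control replicate 2 (adjusted p = 0.0508). Without both samples numbered 1 its adjusted p was 0.0664.

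Marco was dim throughout, at 3.73, 3.50 and 3.83 at 48 hpi, against 3.98, 3.92 and 3.89 in controls. Its second probe set gave 3.07, 3.01 and 3.10 at 48 hpi, against 3.40, 3.47 and 3.40 in controls. Both were lower in all injured samples, by 0.24 ± 0.11 (adjusted p = 0.273) and 0.36 ± 0.08 (0.0530, and 0.0454 with the block). Since all these values lie below the dim bound, they give neither a level nor a change for Marco.

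**Figure D3:**
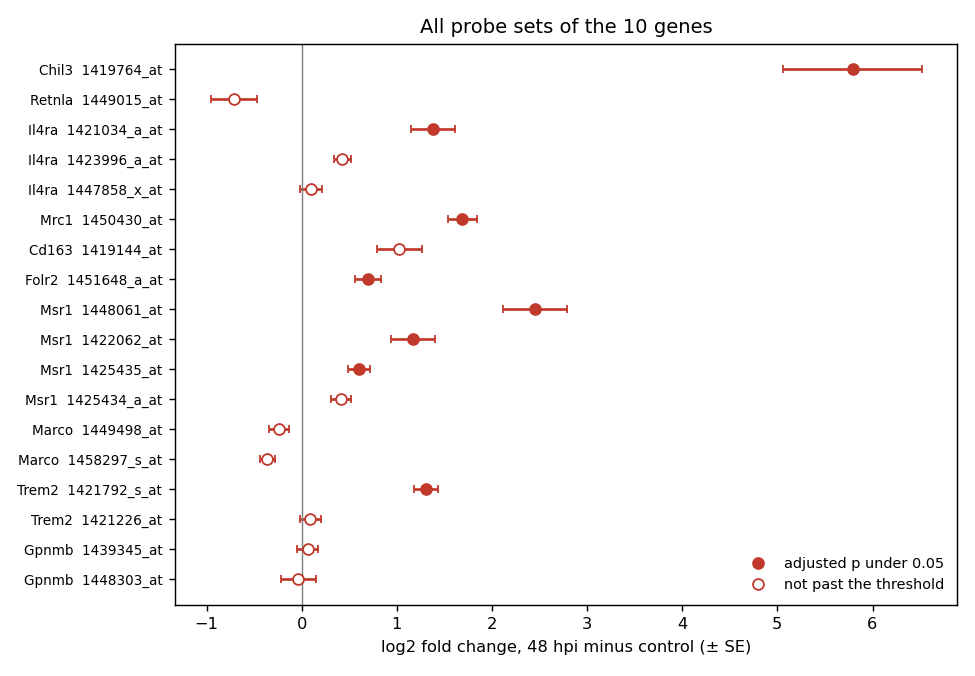
All 18 probe sets of the 10 genes are listed on the vertical axis, with their log2 fold change between 48 hpi and control (± SE of the limma fit) on the horizontal axis, filled where the adjusted p was under 0.05. The 4 Msr1 probe sets run from 2.45 to 0.41, and both Marco probe sets lie below 0.

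Of 26 other scavenger and phagocytic receptor genes, 4 rose and 1 fell, with a median of 0.05. Cd300lf, which encodes a lipid-binding receptor of myeloid cells, rose by 2.01 ± 0.28 (SE, adjusted p = 0.0118), and the beta-glucan receptor Clec7a by 1.66 ± 0.27 (0.0202). Stab1 (1.34) and Cd300a (1.17), named after their values were seen, rose too. Scara5, a ferritin receptor that is also of class A and is expressed by fibroblasts, lay between 9.73 and 10.22 at 48 hpi, against 10.84 to 11.15 in controls, and fell by 1.02 ± 0.15 (adjusted p = 0.0131).

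Trem2 and Gpnmb, which often accompany each other in lipid-laden macrophages, differed here. Trem2 encodes a lipid receptor that signals through the adaptor TYROBP. Its brighter probe set gave 6.74, 6.35 and 6.52 at 48 hpi, against 5.35, 5.24 and 5.10 in controls. Groups were 1.01 apart, and the log2 fold change of 1.31 ± 0.12 (SE, limma adjusted p = 0.00255, 2.47-fold) passed in all 6 fits that left out a sample (adjusted p up to 0.0190). The dim second probe set differed by 0.09 ± 0.11 with overlapping groups. The mean of both rose by 0.70 (adjusted p = 0.00627). Gpnmb, which encodes a transmembrane glycoprotein of phagosomes and melanosomes, measured 8.32, 7.77 and 7.94 at 48 hpi, against 8.34, 7.97 and 7.83 in controls. These overlapped fully, with a log2 fold change of -0.04 ± 0.18 (adjusted p = 0.940). Its dim probe set differed by 0.06 ± 0.11. The log2 difference Trem2 minus Gpnmb was -1.59, -1.42 and -1.42 at 48 hpi, against -3.00, -2.73 and -2.73 in controls, higher by 1.34 (exact permutation test, two-sided, p = 0.1, the smallest possible), and by 0.69 with all probe sets averaged. The difference Folr2 minus Trem2 was lower by 0.61, at 1.77, 1.74 and 1.58 at 48 hpi and 2.27, 2.37 and 2.29 in controls (exact permutation test, two-sided, p = 0.1), and this rested on the brighter Trem2 probe set, since with all probe sets averaged it was -0.0059.

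Partners of Trem2 rose in part. Of 24 measured genes, 5 rose and 0 fell, with a median of 0.42, and with the block 12 rose. Tyrobp, the adaptor itself, rose by 1.77 ± 0.18 (SE, adjusted p = 0.00312) and the fatty acid binding protein gene Fabp5 by 1.28 ± 0.12 (0.00280). Of 16 MITF, TFE and lysosomal genes 3 rose, led by Tfec (2.21 ± 0.20, from dim controls) and the lysosomal galactosidase gene Gla (1.20 ± 0.13). Mitf, a factor known to drive Gpnmb, had means of 7.49 at 48 hpi and 7.49 in controls (adjusted p = 0.981). Gpnmb is also known from melanocytes and osteoclasts. Of 8 melanocyte markers and 10 osteoclast markers 0 rose or fell. With the block the protease gene Mmp9, which is on both the osteoclast and the neutrophil list, rose (0.98, adjusted p = 0.00178, against 0.123 without it). No other gene of the osteoclast list passed with the block. The summed linear value of the melanocyte list was 428 to 489 at 48 hpi against 456 to 497 in controls. Mitf and Sox10 were its brightest genes. The sum of the osteoclast list was 1535 to 1986 at 48 hpi against 1337 to 1915 in controls. In each of these lists 4 genes were dim in both group means, so no change can be read from those.

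Markers of macrophages in general rose on the same arrays. Of 16, 15 rose and 0 fell, with a median of 1.33. The list is not specific to macrophages, since it holds genes such as Ptprc, the CD45 gene of leukocytes in general, named after its values were seen. Their summed linear value was 16980 to 22290 at 48 hpi, against 12850 to 14840 in controls. The largest part of that sum was Lyz2, the 1 marker that did not rise, named after its values were seen. Its means were 12.80 at 48 hpi and 13.23 in controls (-0.43, adjusted p = 0.399). Cd68, a lysosomal glycoprotein of macrophages, rose by 2.28 ± 0.10 (SE, adjusted p = 0.000165), the CSF1 receptor gene Csf1r by 0.93 ± 0.12 (0.00851), the adhesion receptor gene Adgre1 by 1.27 ± 0.11 (0.00184), and Itgam by 2.88 ± 0.17 (0.000505, from dim controls). The mean log2 value of the 16 markers was 9.42, 9.08 and 9.30 at 48 hpi, against 8.13, 7.63 and 7.84 in controls, higher by 1.40. It was lowest in replicate 2 of both groups. At 48 hpi all 6 genes that rose were lowest in replicate 2 too. In controls this held for Il4ra and Msr1, whereas Mrc1, Trem2 and Folr2 were lowest in replicate 3 and dim Chil3 in replicate 1.

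Each of the 10 genes was set against this marker mean on its own array. Because other leukocytes can add to the marker mean, the relative values are not values per macrophage. Chil3, with its dim controls set at the bound of 4.75, was higher relative to it by 3.67, and Msr1 by 1.05. Retnla was lower by 2.11, with a mean of -0.77 ± 0.28 at 48 hpi against 1.34 ± 0.22 in controls (SD, n = 3 each). Relative values of Gpnmb (-1.43) and Folr2 (-0.70) were also lower, without overlap between groups. Marco, dim in all samples, was not read. For Chil3 (measured values), Msr1, Retnla, Gpnmb and Folr2 the exact permutation test, two-sided, gave p = 0.1, the smallest possible, and 0.167 adjusted over the 10 genes. Relative values of Mrc1 (0.29), Cd163 (-0.37), Il4ra (-0.02) and Trem2 (-0.09) overlapped between groups, with exact p of 0.2, 0.2, 0.9 and 0.9. For Msr1 the shift rested on the probe set, being -0.066 with the mean of all probe sets of each gene and marker. In that setting Il4ra was -0.59, Trem2 -0.52 and Mrc1 0.46, each at an adjusted p of 0.125 in the same permutation test. Cd163 was -0.20 (0.667), Retnla, Gpnmb and Folr2 stayed lower, and Chil3 stayed higher. The readings of Il4ra, Trem2 and Mrc1 thus also depended on the probe sets used for genes and markers.

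**Figure D4:**
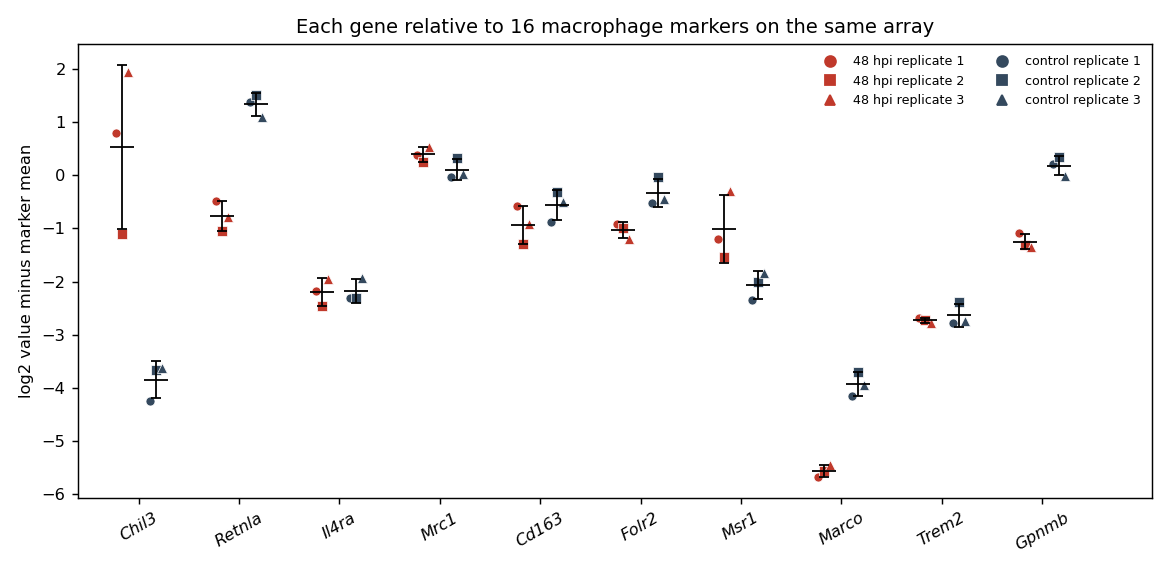
Log2 value of each gene minus the mean of 16 pan-macrophage markers on the same array (vertical axis) for the 10 genes (horizontal axis), at 48 hpi (red) and in controls (dark), 1 symbol per sample, with mean ± SD of 3 samples. Chil3 and Msr1 stand higher at 48 hpi, Retnla, Gpnmb and Folr2 lower, and Mrc1, Cd163, Il4ra and Trem2 overlap between groups. Marco in all samples and Chil3 in controls are dim, so their points give no level.

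Neutrophil, alveolar macrophage and classical activation genes were read as a background for these values. Of 13 neutrophil markers 5 rose and 0 fell, led by S100a8 (4.27 ± 0.77, SE, adjusted p = 0.0288) and S100a9 (4.13 ± 0.72, 0.0256). Il1r2 (2.17), Fcgr3 (2.17) and Csf3r (1.12) rose too. Ngp (-0.26), Mpo (-0.14), Elane (-0.01, dim) and Camp (0.01) did not pass, nor did Cxcr2 and Mmp8, dim in both group means. All genes from Il1r2 to Mmp8 were named after their values were seen. Mmp9 (0.98), which is also on the osteoclast list, passed only with the block. The summed linear value of the neutrophil list was 10130 to 15260 at 48 hpi against 11940 to 15140 in controls. Most of that sum was the lactoferrin gene Ltf, also expressed by airway glands and named after its values were seen, at 13.43, 12.87 and 12.42 at 48 hpi against 13.68, 13.48 and 13.81 in controls (adjusted p = 0.149). Without Ltf, a choice made after seeing the data, the sum was 2621 to 5236 at 48 hpi and 548 to 770.8 in controls. At 48 hpi S100a8, like Chil3, was lowest in replicate 2 and highest in replicate 3. S100a9 and Csf3r had the same order, as did Mrc1, Msr1, Il4ra and the macrophage gene Cd68. Il1r2 and Fcgr3 of the neutrophil list were lowest in replicate 2 and highest in replicate 1. The part of neutrophil RNA in Chil3 was not tested. Of 9 alveolar macrophage markers Csf2rb rose (2.10 ± 0.21, adjusted p = 0.00342). Of 19 classical activation genes 2 rose and 0 fell, with a median of 0.14: the cytokine gene Il1b (2.34 ± 0.22, 0.00268) and the formyl peptide receptor gene Fpr2 (2.16 ± 0.37, 0.0238). Nos2, the inducible nitric oxide synthase gene set against Arg1 in this scheme and named after its values were seen, had a log2 fold change of -0.01 ± 0.12 (adjusted p = 0.976). Its means, 5.04 at 48 hpi and 5.05 in controls, lay close to the dim bound, so little can be read from them. Of the 19 genes 6 were dim in both group means.

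**Figure D5:**
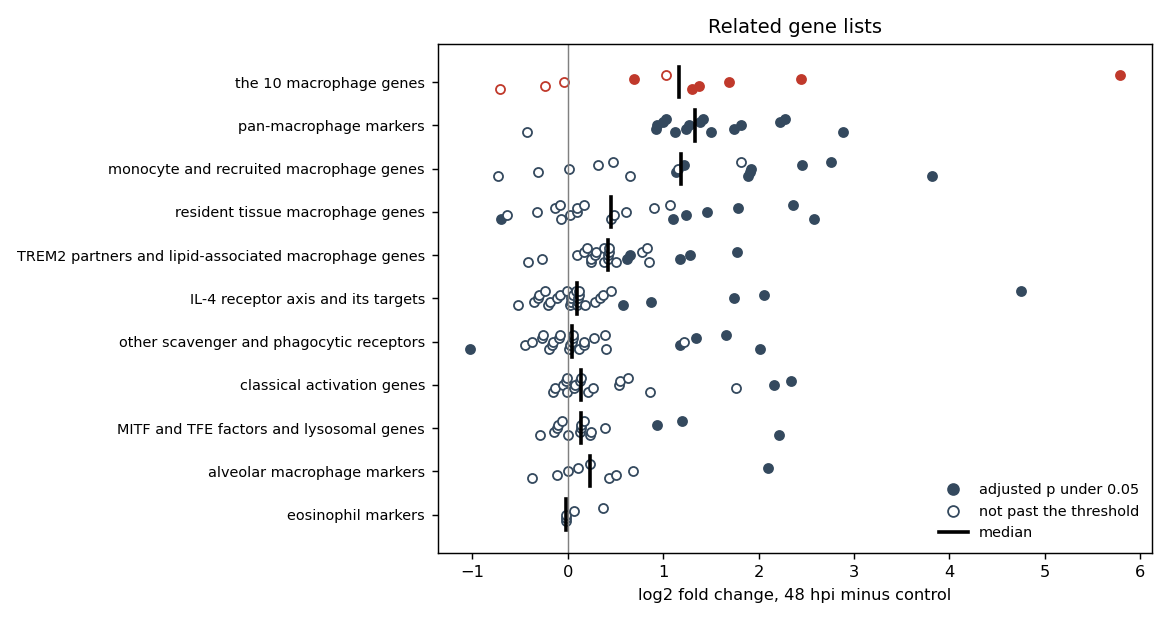
Points show the log2 fold change between 48 hpi and control (horizontal axis) of single genes, for the 10 genes (red) and for gene lists (dark) down the vertical axis. Filled points passed the adjusted p of 0.05 and vertical bars are medians. The median is 1.17 for the 10 genes, 1.33 for pan-macrophage markers and 0.09 for the IL-4 receptor axis.

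Genes with the most similar profile over the 6 samples were listed for each gene that rose, among 13264 genes above the dim bound. For Mrc1 these were Spi1, Spc24 and Ahcy (Pearson r = 0.9995, 0.9994 and 0.9988). For Chil3 they were Rbm19, Aldh1a2 and Mrpl51 (0.9996, 0.9983 and 0.9980), for Msr1 Slfn4, Bop1 and Ddx39a (0.9989, 0.9986 and 0.9985), and for Trem2 Mrpl58, Rpa3 and Nos3 (0.9982, 0.9975 and 0.9974). Il4ra was followed by Trappc5, Prim1 and Cyp1b1 (0.9967, 0.9960 and 0.9959), and Folr2 by Ctdnep1, Mmp3 and Nfkb2 (0.9975, 0.9969 and 0.9965). These correlations over 6 samples that fall into separate groups are descriptive, and several of these genes changed by far less than the gene they follow, such as Rbm19 by 0.46 beside 5.79 for Chil3.

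All 17 mesenchyme genes were above the dim bound in both groups, with the fibrillar collagen gene Col1a2, chosen after its values were seen, at means of 13.45 at 48 hpi and 13.37 in controls. Their median log2 fold change was 0.00, with a summed linear value of 84650 to 101300 at 48 hpi against 83610 to 101500 in controls. The endothelial cadherin gene Cdh5 rose (0.71, adjusted p = 0.0353), and with the block 3 of the 17 rose and 2 fell. Correlations between arrays of the same group ran from 0.987 to 0.994. T, B and NK cell markers (0 of 10), mast cell markers (0 of 9) and dendritic cell markers (1 of 11, Fscn1, by 1.16) gave few calls. The mast cell median was 0.69, and with the block 4 of 9 mast cell and 2 of 11 dendritic cell markers rose. The mast cell markers were Cpa3 (0.0489), Mcpt4 (0.0212), Fcer1a (0.0208) and Hdc (0.0115), by adjusted p with the block, the last 3 named after their values were seen. The block also gave 12 rises among monocyte genes, 8 among resident macrophage genes (and 1 fall), 6 among other scavenger receptors (and 2 falls), 6 among neutrophil markers, 4 among alveolar macrophage markers, 4 among classical activation genes and 4 among MITF, TFE and lysosomal genes. In the IL-4 receptor axis it gave 5 rises and 1 fall, of the arginine transporter gene Slc7a2.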

How the data were processed

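RNA of 6 mesenchyme samples was amplified by the authors and hybridized to 1 Affymetrix mouse genome array each. The deposited values are on the log2 scale, 1 per probe set, made by the authors with RMA (background correction, quantile normalization and a summary over the probes of a set). Partek 6.5 and Affymetrix Expression Console 1.1 are also listed in the submitters' processing notes. RMA compresses differences of dim probe sets and gives no detection call. The number of arrays limits the precision.

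Of 45101 probe sets, 64 controls were left out. The platform annotation gave 1 symbol to 34945 of the rest, several to 932 and none to 9160, and 34741 probe sets were matched by Entrez identifier to a RefSeq table (GRCm38.p6) for current symbols. Each gene was represented by the probe set of highest mean value. Groups were compared with limma 3.58.1 (R 4.3.3), two-sided, with a single factor for group, and p-values were adjusted by Benjamini-Hochberg over 45037 probe sets. Because only mesenchyme is analysed here, treatment is the single factor of the 2-way design in the study's methods. Dim means below 4.75, the 40th percentile of all values. Summed linear values add 2 to the power of the log2 value over a list. The scripts were tested on simulated data.

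Members, lists and pairs were chosen with earlier results of these data known. Named genes were the 10 genes, 10 genes given by name, up to 2 rises and 2 falls per list without overlap between groups (or the 2 brightest where none passed), and the 3 nearest profiles of each gene that rose. Samples with the same replicate number deviated together from their group means (correlations of 0.62, 0.36 and 0.34). This pairing comes from the data and not from the labels. Of pairs with unlike numbers, 48 hpi replicate 2 with control 3 (0.18) and 48 hpi replicate 3 with control 2 (0.11) were also positive. The rest ran from -0.43 to -0.36. Deviations cancel out within a group, so these correlations are not independent. The block was chosen on the same values that it is fitted to. The blocked fit, with replicate number as a factor, is given where it changes the call of one of the 10 genes or the count of a list. Other alternatives were median centring, renewed quantile normalization, leaving out dim probe sets, a trended robust prior, an unmoderated equal-variance test, the mean of all probe sets, the median of the markers, and leaving out samples.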

Additional observations from a re-analysis of the deposited data

How the results depend on the processing

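The count of 6 genes that rose and 0 that fell was the same after median centring, renewed quantile normalization, leaving out dim probe sets and with a trended robust prior. Without moderation 0 rose after adjustment, and 7 at an unadjusted p. The replicate block gave 7 rises and 1 fall, and the mean of all probe sets 7 rises and 0 falls. Leaving out 1 sample gave 3 to 6 rises (3 without control replicate 2) and 0 falls, and leaving out both samples numbered 1 gave 2 rises. Fewer samples were fitted there. Shares of all genes are given only for the main, unmoderated and blocked fits. Whether the calls of all genes changed alike in the other fits cannot be read from these counts. Over the genes of all lists, 56 rises and 2 falls became 2 and 0 without moderation, 86 and 8 with the replicate block, and 32 to 53 rises and 0 to 4 falls without 1 sample (32 without 48 hpi replicate 3, 37 without control replicate 3). At an unadjusted p, 11 fell. The causes were not tested.

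Log2 values near 0 changed sign. Without 1 sample, Gpnmb ran from -0.19 to 0.11 (its dim probe set from -0.013 to 0.14), Il4 from -0.039 to 0.13, Stat6 from -0.032 to 0.088, Prg2 from -0.026 to 0.19, Cd3e from -0.20 to 0.00062, Cd4 from -0.13 to 0.14, Ctsk from -0.20 to 0.065, Sox10 from -0.34 to 0.0074 and Mitf from -0.057 to 0.085. Relative to the macrophage marker mean, Il4ra ran from -0.14 to 0.11 and Trem2 from -0.16 to 0.033. Without both samples numbered 1, Cd3e was 0.086 and Cd4 0.20. Median centring gave 0.014 for Cd4, and renewed quantile normalization -0.013 for Stat6 and -0.035 for Mitf. The mean of all probe sets gave 0.012 for Gpnmb, -0.25 for Mitf and -0.066 for Msr1 relative to the marker mean. Dim values of Marco, Il4, Il13 and control Chil3 limit what can be read from them.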
